A study of Mus musculus with 2 samples.

Results

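The genes described here encode 2 ITAM adaptor chains, Tyrobp (DAP12) and Fcer1g (the Fc receptor gamma chain), and the immunoreceptors known to pair with them, in mouse osteoclast precursors. Members were the array genes of the annotated expression table whose listed gene name was OSCAR, TREM1, TREM2, TREM3, TYROBP, FCER1G, SIRPB1, CLECSF5, CLEC5A or CD300LF. Of these 10 names, 9 were found among 31492 array genes, and CD300LF was not analysed here. CLECSF5 and CLEC5A are 2 array genes of Clec5a, so the 9 array genes stand for 8 mouse genes, 2 adaptors and 6 receptors.

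The tested cultures received M-CSF + RANKL, each at 30 ng/ml, and the control cultures received M-CSF alone at 30 ng/ml, both for 3 days before RNA was taken from the adherent cells. All cells came from bone marrow of C57BL/6 mice aged 8 weeks and had been sorted as CD3-, CD45R-, CD11b lo/- and CD115+, CD115 being the M-CSF receptor. M-CSF keeps cells of the monocyte lineage alive, and RANKL is the cytokine that starts osteoclast formation. Each group was deposited as the mean and SD of 3 biological replicates, each on its own Illumina array.

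An ITAM is a short tyrosine-based motif in the tail of an adaptor chain. Receptors such as OSCAR or TREM2 have no such motif of their own and signal by holding an adaptor through charged residues in the membrane. When the receptor is engaged, Src family kinases phosphorylate the ITAM, the kinase Syk docks there, and phospholipase C gamma releases calcium, which through calcineurin activates the transcription factor NFATc1. In osteoclast precursors this route acts beside RANK as a co-stimulatory signal, and mice that lack both DAP12 and the Fc receptor gamma chain make few osteoclasts and have dense bone.

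Values below are the authors' mean normalized intensities on a linear scale, with the SD over 3 arrays. Array genes that were not detected had a median of 144.9 with M-CSF + RANKL and 145.04 with M-CSF. This is taken as the background, and because of it the fold of a dim gene is understated. An array gene counted as detected at a detection p under 0.01 and was tested if detected in at least 1 group. Most detection p-values were whole multiples of one step, called regular here, and the lowest signal that was detected with a regular p was 196 with M-CSF + RANKL and 198 with M-CSF. For a gene undetected in 1 group, with a signal there under that limit, the fold is a lower bound taken against the limit. Differences are log2 ratios of the means, M-CSF + RANKL over M-CSF, with standard errors and p-values from limma's moderated variances, adjusted over all 11012 tested array genes. The labels do not say whether replicates were separate animals, sorts or cultures, so p-values measure only the spread between these replicates, and the number of arrays limits the precision. These are bulk cultures, in which fewer cells of a type and less RNA per cell cannot be told apart.

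With RANKL, 1 receptor gene of the group, Oscar, was higher by far, and all other members were lower. Of 9 tested array genes, 1 was higher, 8 were lower and 0 did not pass at an adjusted p under 0.05. The 8 lower ones cover 5 receptors, Trem1, Trem2, Trem3, Clec5a and Sirpb1a, and both adaptors. Among all tested array genes 57.8% differed, 28.9% higher and 29.0% lower, so that a call by itself is common in this comparison. A fall of at least 2-fold was less common, at 7.01% of all tested array genes. Of the 9 member array genes 6 had one, 2 of these being the array genes of Clec5a. A rise of at least 2-fold was seen in 6.9% of all tested array genes and in 1 member. The members were chosen with earlier results of these data known. The median log2 ratio was -1.33 over the 9 members and -0.00 over all tested array genes. In 0 of the 9 did the interval of mean ± 1 SD overlap between the groups. The same held for 62.3% of all tested array genes, and single arrays may still overlap, since only means and SDs were used.

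**Figure D1:**
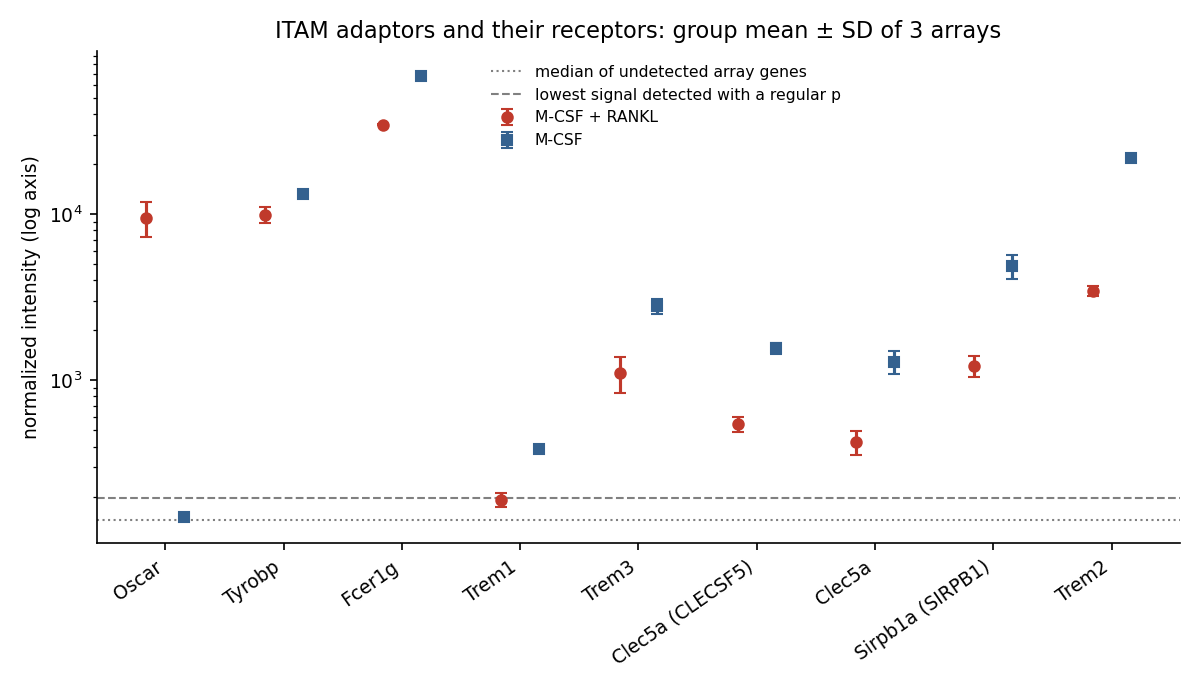
Mean normalized intensity (log axis) of the 9 member array genes with M-CSF + RANKL (circles) and with M-CSF (squares), bars showing the SD over 3 arrays, the dotted line the median of undetected array genes and the dashed line the lowest signal detected with a regular p (each averaged over both groups). Oscar lies at the dotted line with M-CSF and at 9529.95 with M-CSF + RANKL, and every other member is lower with M-CSF + RANKL. Heights of different genes come from different probes and are not compared.

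Oscar encodes the osteoclast-associated receptor, which binds collagen and signals through the Fc receptor gamma chain. It read 9529.95 ± 2285 with M-CSF + RANKL and 151 ± 7.35 with M-CSF (SD, n = 3 arrays each). The M-CSF value is 1.04 times the background and carries a detection p of 0.304, so Oscar was not detected there and the fold is a bound of at least 48.2-fold higher. Only 8 of the 11012 tested array genes had a higher log2 ratio than the measured 5.98 ± 0.15 (SE) of Oscar, a rank that takes undetected signals as measured (adjusted p = 4.14e-11, limma). The SD with M-CSF + RANKL was 24.0% of the mean, against a median of 7.16% over the array genes detected there. The difference missed the threshold when each gene was tested on its own 2 SDs, with no moderation across genes (adjusted p = 0.053, unequal-variance statistic on the linear means).

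Both adaptors were lower, Tyrobp by less than each of the DAP12-coupled receptors. Tyrobp, whose protein DAP12 serves the TREM receptors, MDL-1 and SIRP-beta, read 9959 ± 1159.8 with M-CSF + RANKL and 13208 ± 200.3 with M-CSF (SD, n = 3 arrays each). It thus kept 75.4% of its M-CSF level, a log2 ratio of -0.41 ± 0.09 (SE; 95% interval -0.60 to -0.21; adjusted p = 0.00205, limma). The call for Tyrobp is the least secure of the 9, since it was lost with both SDs doubled (adjusted p = 0.119, limma) and with no moderation across genes (adjusted p = 0.0804, unequal-variance statistic).

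Fcer1g, the adaptor of OSCAR and of the activating Fc gamma receptors, read 34558 ± 180.02 with M-CSF + RANKL and 67913 ± 2759 with M-CSF (SD, n = 3 arrays each). It kept 50.9% of its M-CSF level (log2 -0.97 ± 0.05 SE, adjusted p = 2.36e-08, limma). The M-CSF value is 95.6% of the highest mean of any array gene in that group, so the fall is understated if the probe saturates there. Both adaptors remained far above background with M-CSF + RANKL, at 68.7 times for Tyrobp and 239 times for Fcer1g. The log2 ratio of Fcer1g was lower than that of Tyrobp by 0.57 ± 0.10 (SE, which takes the 2 genes as independent).

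Trem2 encodes a lipid-binding and apolipoprotein-binding receptor of macrophages, microglia and osteoclast precursors that pairs with DAP12. It had the largest fall among the members on the measured signals, with 3471 ± 236 under M-CSF + RANKL and 21652 ± 779 under M-CSF (SD, n = 3 arrays each). The log2 ratio was -2.64 ± 0.08 (SE; 95% interval -2.82 to -2.46; adjusted p = 1.77e-10, limma), and 76 of 11012 tested array genes had a lower one. Even so Trem2 stayed detected, at 24.0 times the background with M-CSF + RANKL.

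The other TREM receptors were lower too. Trem3, a DAP12 partner of mouse macrophages for which no working human gene is known, read 1108 ± 267 with M-CSF + RANKL and 2789 ± 296 with M-CSF, a log2 ratio of -1.33 ± 0.16 (SE; adjusted p = 1.62e-05, limma). Trem1, which amplifies inflammatory responses of monocytes and neutrophils, read 191 ± 19.2 with M-CSF + RANKL and 388 ± 16.4 with M-CSF, a log2 ratio of -1.02 ± 0.10 (SE; adjusted p = 2.72e-06, limma). With M-CSF + RANKL the Trem1 signal lies below 196 although its detection p was 0.00241, so its level there is close to the lowest that the array can resolve. After subtraction of the background, with signals held at or above the same lower limit, the log2 ratio of Trem1 was -2.24, a fall more than 1.5 times larger than on the measured signals.

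Sirpb1a and Clec5a also fell, with log2 ratios between those measured for Trem3 and Trem2. The array gene SIRPB1 matches Sirpb1a, a DAP12-coupled member of the SIRP family, through a synonym, and cross-hybridisation with its close relatives Sirpb1b and Sirpb1c was not examined. It read 1224 ± 176 with M-CSF + RANKL and 4883 ± 804 with M-CSF (log2 -1.997 ± 0.14 SE, adjusted p = 1.58e-07, limma). Clec5a encodes MDL-1, a C-type lectin of myeloid cells that pairs with DAP12 and binds dengue virus. Its array gene CLECSF5 read 544 ± 55.7 with M-CSF + RANKL and 1560.3 ± 109 with M-CSF, a log2 ratio of -1.52 ± 0.11 (SE; adjusted p = 2.26e-07, limma). Its array gene CLEC5A read 428 ± 70.7 with M-CSF + RANKL and 1291 ± 203 with M-CSF, a log2 ratio of -1.59 ± 0.14 (SE; adjusted p = 1.67e-06, limma). The 2 log2 ratios of Clec5a differed by -0.07 (CLEC5A minus CLECSF5, 95% interval -0.47 to 0.32).

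**Figure D2:**
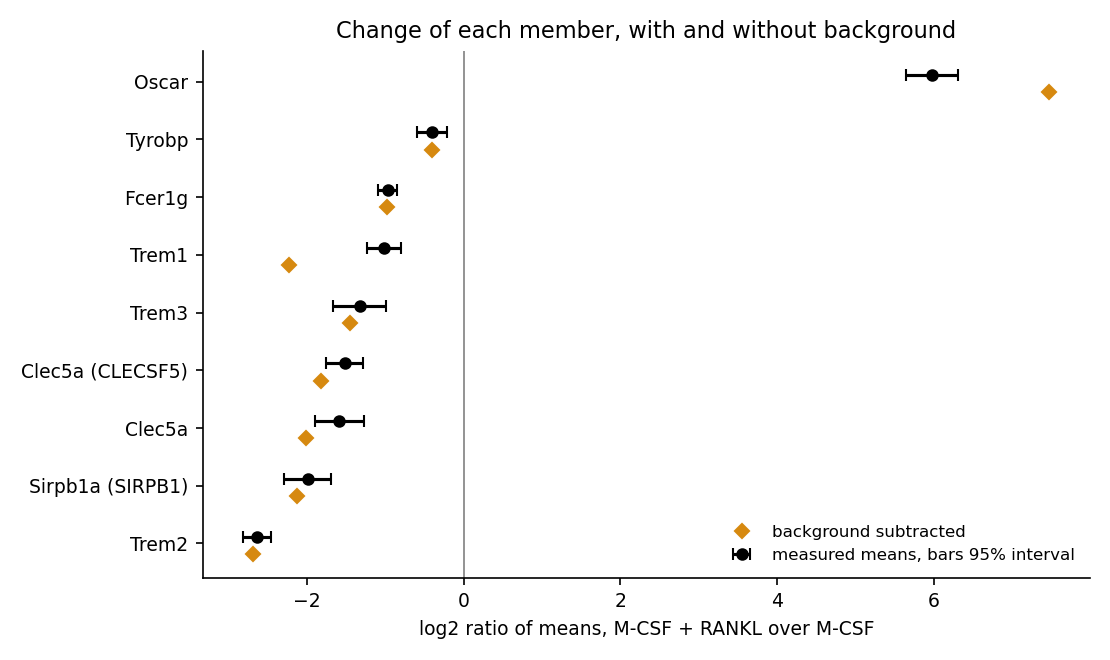
Log2 ratio of the means, M-CSF + RANKL over M-CSF, for each member, from the measured signals (circles, bars 95% interval) and after subtraction of the background with a lower limit on the signal (diamonds). Oscar alone lies right of 0, at 5.98 with its M-CSF signal at background, and Trem1 moves most among the lower members when background is subtracted, to -2.24.

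The members also differed among themselves. Oscar was higher while its own adaptor Fcer1g was lower. Each of the DAP12-coupled receptors was lower relative to Tyrobp, by log2 differences (receptor minus Tyrobp) of -2.23 ± 0.12 for Trem2, -1.59 ± 0.16 for Sirpb1a, -0.92 ± 0.18 for Trem3 and -0.61 ± 0.13 for Trem1 (SE). For Clec5a this difference was -1.11 ± 0.14 by CLECSF5 and -1.18 ± 0.17 by CLEC5A. Between neighbours in the order of falls, Trem2 exceeded Sirpb1a by -0.64 (95% interval -0.99 to -0.29), whereas the intervals for Sirpb1a minus CLEC5A (-0.84 to 0.03), Trem3 minus CLECSF5 (-0.23 to 0.61) and Trem3 minus Trem1 (-0.71 to 0.09) all include 0. The place of Trem1 in this order depends on background, since Trem3 minus Trem1 was -0.31 on measured signals and 0.78 after background subtraction. Trem2 minus Trem1 went from -1.62 ± 0.13 to -0.46 ± 0.28 (SE), with the subtracted Trem1 signal under M-CSF + RANKL held at the lower limit. These differences are descriptions, and the members share their arrays, which the standard errors leave out.

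Position was not used to choose the members, but the stretch described here was picked around the Trem members. In the RefSeq annotation (GRCm38.p6, used for names and order only), Trem1, Trem3, Treml4, Treml2, B430306N03Rik, Trem2 and Treml1 are consecutive protein-coding genes on one chromosome. This stretch was examined after the member values were seen. All 7 are on the array, 6 were lower with M-CSF + RANKL, 0 were higher, and Treml2 was not tested because it was detected in neither group. Of the 6, Trem1, Trem2 and Trem3 are members already counted above, and 29.0% of all tested array genes were lower. Treml4, a receptor of dendritic cells and macrophages, read 195 ± 16.1 with M-CSF + RANKL and 388 ± 19.5 with M-CSF (adjusted p = 2.55e-06, limma). Like that of Trem1, its M-CSF + RANKL signal lies below 196 although its detection p was 0.000514. Treml1, known from platelets, was at least 2.26-fold lower, at 181 ± 22.2 with M-CSF + RANKL and 444 ± 60.8 with M-CSF, and B430306N03Rik was at least 2.46-fold lower. The next protein-coding genes outside the stretch were lower too. Nfya, a subunit of the CCAAT-binding factor NF-Y, read 328 ± 51.1 with M-CSF + RANKL and 570 ± 90.5 with M-CSF (log2 -0.80 ± 0.14 SE, adjusted p = 0.000414, limma), and A530064D06Rik was at least 1.45-fold lower.

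**Figure D3:**
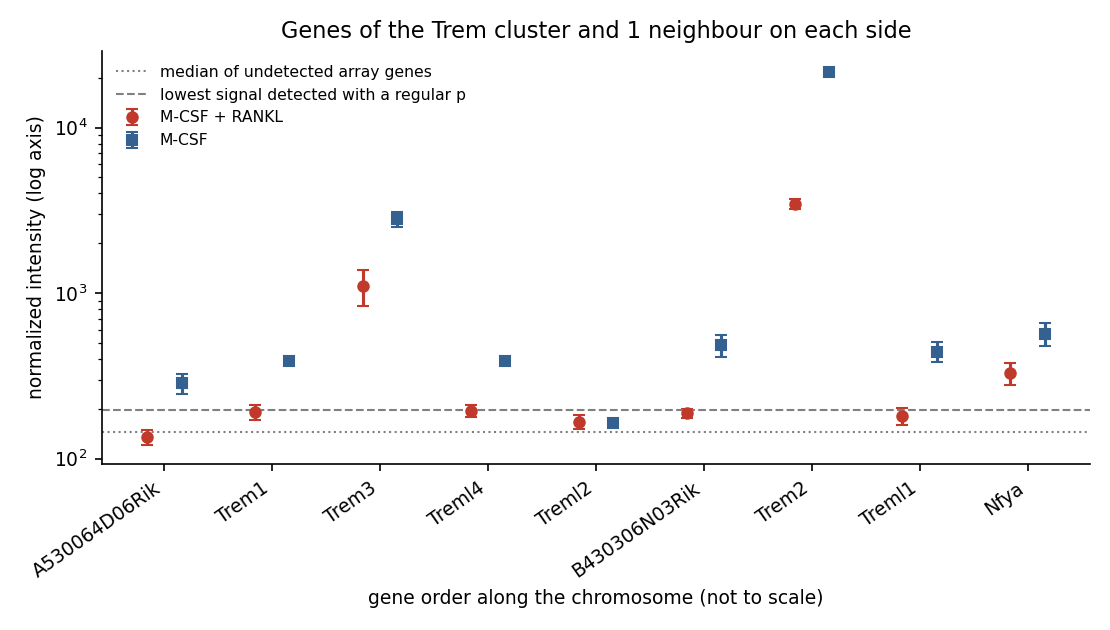
Mean normalized intensity (log axis, bars SD over 3 arrays) of 7 consecutive genes from Trem1 to Treml1 and of 1 protein-coding neighbour on each side, with M-CSF + RANKL (circles) and with M-CSF (squares). Treml2 is near the dotted background line in both groups, and each of the other genes is lower with M-CSF + RANKL.

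The 250 bases before the annotated start are shown for Oscar and Trem2, the members with the largest measured change in each direction, from RefSeq (GRCm38.p6). Oscar lies at chr7:3616158-3616407 on the minus strand and Trem2 at chr17:48346151-48346400 on the plus strand, both written 5′ to 3′ along the gene. Capitals mark letters searched on both strands for NFAT factors (GGAAA), AP-1 (TGANTCA) and E-box factors such as MITF (CANNTG), with any base at N.
Oscar: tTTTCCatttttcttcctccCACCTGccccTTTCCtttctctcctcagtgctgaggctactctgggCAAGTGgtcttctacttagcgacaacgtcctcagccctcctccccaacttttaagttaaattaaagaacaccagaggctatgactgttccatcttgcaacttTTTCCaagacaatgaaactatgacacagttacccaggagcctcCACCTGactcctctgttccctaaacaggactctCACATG
Trem2: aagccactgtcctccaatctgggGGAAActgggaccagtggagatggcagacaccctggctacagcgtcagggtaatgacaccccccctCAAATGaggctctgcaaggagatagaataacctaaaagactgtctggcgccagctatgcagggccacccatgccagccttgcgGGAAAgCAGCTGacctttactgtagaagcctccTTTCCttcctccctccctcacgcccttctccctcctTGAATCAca
The Oscar window holds 3 NFAT cores and 4 E-boxes, and the Trem2 window 3 NFAT cores, 2 E-boxes and 1 AP-1 match. Of 32851 RefSeq windows of this length, 55.6% hold at least 1 NFAT core, 66.2% an E-box and 6.75% an AP-1 match. Shares of windows with as many matches as these 2 were not computed. NFAT cores numbered 2 in the windows of Trem1 and Clec5a, 1 in that of Fcer1g and 0 in that of Sirpb1a. A PU.1 core (GAGGAA, which overlaps the NFAT core where an A follows) was found once in each of the 2 windows and in 23.3% of all. Of 8 member genes, 6 have a window in the table, and the AP-1 letters occur in that of Trem2 alone. The AP-1 letters of Trem2 read TGAATCA, and since any base was allowed at N, the AP-1 matches are those of a loose pattern. A match of letters is a description of the sequence and no binding site.

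A wider list of receptors and partners of ITAM signalling held 33 genes on the array. Of these 18 were tested, of which 11 fell, 2 rose and 5 missed the threshold, at a median log2 ratio of -1.14. Beside this list and those below, 28.9% of all tested array genes rose and 29.0% fell. The list is not limited to receptors of the 2 adaptors. Among its tested genes Hcst is an adaptor itself, Clec7a and Nfam1 carry tyrosine motifs of their own, and Treml1 bears an ITIM, and Clec7a and Treml1 are among the 11 falls. When genes were instead admitted by a mean above the lower limit in at least 1 group, called the signal filter here, 20 were tested, with 11 falls, 3 rises and a median of -0.74. The activating Fc gamma receptors need the Fc receptor gamma chain to reach the cell surface. Fcgr3 read 985 ± 132 with M-CSF + RANKL and 11999 ± 1614 with M-CSF (log2 -3.61 ± 0.12 SE, adjusted p = 4.68e-10, limma). Fcgr1, the high-affinity IgG receptor, read 243 ± 62.2 with M-CSF + RANKL and 2646 ± 166 with M-CSF (log2 -3.44 ± 0.16 SE, adjusted p = 4.92e-09, limma). Cd300ld, listed as 4732429D16RIK, a CD300 family member coupled to that chain, fell 5.58-fold to 433 ± 23.5, against 2415 ± 394 with M-CSF.

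The 2 rises were both under 2-fold as measured. Lilra6, listed as PIRA3, an immunoglobulin-like receptor of the PIR-A group, read 926 ± 26.5 with M-CSF + RANKL and 512 ± 32.7 with M-CSF (log2 0.86 ± 0.10 SE, adjusted p = 1.12e-05, limma). With M-CSF its detection p was 0.0147, so it was not called detected there, and signal from its near-identical paralogs cannot be told apart. Itgb3, the integrin beta3 chain, whose signals pass through DAP12 in osteoclasts, was at least 1.27-fold higher, at 251 ± 49.6 with M-CSF + RANKL and 158 ± 15.7 with M-CSF. Hcst (DAP10), which carries a PI3-kinase motif in place of an ITAM and can share receptors with DAP12, read 909 ± 50.7 with M-CSF + RANKL and 774 ± 35.3 with M-CSF. That difference did not pass (log2 0.23 ± 0.10 SE, adjusted p = 0.0603, limma).

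A list of inhibitory receptors with ITIMs, which recruit phosphatases against ITAM signals, and of their relatives was mostly lower. Of 13 tested, 10 fell, 0 rose and 3 missed the threshold (median log2 ratio -0.67). Under the signal filter 11 of 13 fell and 0 rose (median -0.89). The list was not checked gene by gene for an ITIM, so the counts are not of ITIM receptors alone. Sirpa, listed as PTPNS1, the receptor for the don't-eat-me signal CD47, read 11090 ± 1144.9 with M-CSF + RANKL and 22897 ± 1209 with M-CSF (log2 -1.05 ± 0.09 SE, adjusted p = 7.03e-07, limma). Milr1, listed as GM885, fell 4.003-fold and Lair1, a collagen receptor listed as 5133400O11RIK, fell 3.06-fold. Lilr4b (gp49A), which is in the list as a close relative of the ITIM receptor gp49B and has no ITIM itself, fell 4.61-fold. Pirb was detected in neither group, at 196 ± 4.19 with M-CSF + RANKL and 172 ± 4.06 with M-CSF, and was not tested.

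Downstream, genes of the cytosolic part of the route went both ways. Of 20 tested kinases, adaptors and calcium signalling genes, 5 rose, 10 fell and 5 did not pass (median log2 ratio -0.35). Among all tested array genes 28.9% rose and 29.0% fell, so rises were not more common in this list than among all, while falls were. The largest called rise was that of Nfatc1, the transcription factor at the end of the route, with 2936 ± 195 under M-CSF + RANKL and 581 ± 48.0 under M-CSF (log2 2.34 ± 0.10 SE, adjusted p = 3.71e-09, limma). Cblb, a ubiquitin ligase that limits tyrosine kinase signals, rose 2.70-fold, and Syk rose 1.47-fold to 483 ± 22.8, against 328 ± 42.6 with M-CSF. Among the falls were those of the scaffold Gab3 (3.07-fold), the adaptor Blnk, which links Syk to phospholipase C gamma (2.57-fold), the exchange factor Vav1 (1.83-fold) and Plcg2, the main phospholipase C gamma of these cells (1.72-fold).

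Some bright genes of this list had a high, irregular detection p in both groups and so were not tested. Under the signal filter, 28 were tested, of which 8 rose and 14 fell (median log2 ratio -0.33). The rises then included 2 genes, named after their values were seen, whose measured ratio exceeded that of Nfatc1. Lat, a membrane scaffold best known from T cells, read 1172 ± 90.5 with M-CSF + RANKL and 152 ± 7.45 with M-CSF (adjusted p = 1.87e-10, limma with the signal filter). Src, a kinase that osteoclasts need to resorb bone, read 902 ± 94.98 with M-CSF + RANKL and 161 ± 4.97 with M-CSF (adjusted p = 1.01e-09, limma with the signal filter). Both M-CSF signals lie under the lower limit given above, so the folds are bounds, at least 5.93-fold for Lat and 4.56-fold for Src. Only the bound of Lat exceeds the 5.05-fold rise of Nfatc1.

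For genes that restrain the route, the picture depended on the filter. Of 7 tested by detection, 6 fell and 1 rose (median log2 ratio -0.93), and of 11 tested under the signal filter, 7 fell and 3 rose (median -0.38). Dok2, an adaptor that dampens tyrosine kinase signals, fell 3.51-fold, Sla, an adaptor that promotes receptor breakdown, 3.11-fold, and Inpp5d, the lipid phosphatase SHIP1, 2.35-fold. The rise among the 7 was that of Dok3, an adaptor known to inhibit DAP12 signals, which read 21516 ± 899 with M-CSF + RANKL and 10199 ± 1531 with M-CSF (log2 1.08 ± 0.10 SE, adjusted p = 2.23e-06, limma). The signal filter added, among others, 2 rises, named after their values were seen. Ptpn22, listed as PTPN8, a phosphatase that acts on Src and Syk family kinases, read 5946 ± 254 with M-CSF + RANKL and 1325 ± 220.3 with M-CSF (adjusted p = 1.62e-08, limma with the signal filter). Dok1, a relative of Dok2, read 742 ± 132 with M-CSF + RANKL and 481 ± 79.8 with M-CSF (adjusted p = 0.00312, limma with the signal filter).

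**Figure D4:**
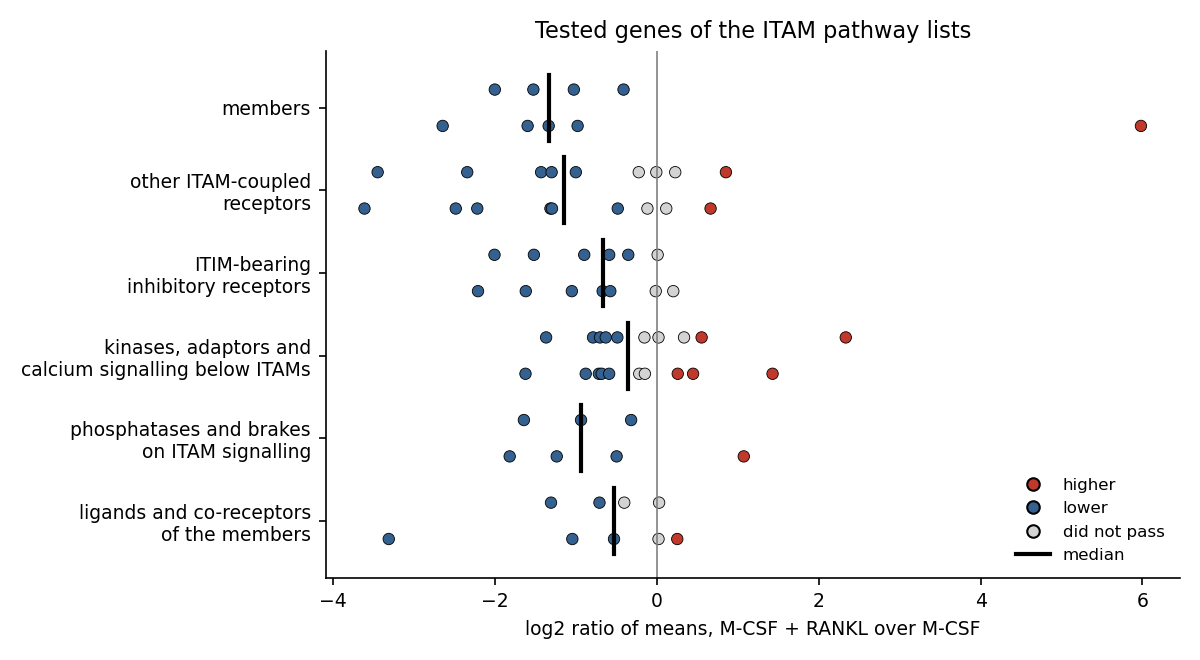
Log2 ratio of the means, M-CSF + RANKL over M-CSF, for every gene tested by detection in the member group and in 5 lists of the ITAM route, coloured by the limma call, with a bar at each median. All 6 medians lie below 0, from -1.33 for the members to -0.35 for kinases, adaptors and calcium signalling, and Oscar, at 5.98, is the point farthest to the right.

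A list of ligands, proteases and presumed partners of the members, not checked gene by gene for its link to them, had 9 tested genes, of which 5 fell, 1 rose and 3 missed the threshold (median log2 ratio -0.53). Apoe, an apolipoprotein bound by TREM2, read 1095 ± 76.3 with M-CSF + RANKL and 10836 ± 1072 with M-CSF (log2 -3.31 ± 0.10 SE, adjusted p = 1.78e-10, limma). Adam17, a protease that sheds TREM2 from the cell surface, fell 2.47-fold, and Il4ra, reported as a partner of the CD300LF protein, was at least 1.60-fold lower. The rise, 1.19-fold, was that of Actr10, a dynactin subunit for which no part in this route is known. Plxna1, which joins TREM2 and DAP12 in a complex for semaphorin 6D, read 166 ± 39.9 with M-CSF + RANKL and 165 ± 28.8 with M-CSF and was detected in neither group.

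Markers show which cells could carry these signals. Of 8 osteoclast markers 7 were tested and all 7 rose, and their summed signal was 158692 ± 9112 with M-CSF + RANKL and 5373 ± 637 with M-CSF (background included, SD combined over genes). Of 13 monocyte and macrophage markers 12 fell, 0 rose and 1 did not pass, with summed signals of 88191 ± 3496 with M-CSF + RANKL and 232638 ± 6081 with M-CSF. These marker lists moved with the member changes, and their part in them was not tested. Neutrophils also express Trem1, Trem3 and Clec5a. The cells had been sorted as CD115+ and CD11b lo/- before culture, and 9 of 10 granulocyte markers were detected in each group. Of these 9, 3 were lower, 0 were higher and 6 did not pass, beside 29.0% lower among all tested array genes. Their list had summed signals of 15783 ± 2279 with M-CSF + RANKL and 21132 ± 3440 with M-CSF. Mpo, Prtn3 and Ctsg, large parts of these sums, did not pass, with SDs from 43.1% to 54.8% of their means. The part of granulocytes was likewise not tested. Natural killer cells use Tyrobp, and of 7 of their markers 2 were detected with M-CSF + RANKL and 1 with M-CSF. Klrd1, detected in both groups, read 334 ± 68.3 with M-CSF + RANKL and 389 ± 75.8 with M-CSF and did not pass. Prf1, called detected with M-CSF + RANKL only, was higher there, at 1333 ± 133 against 847 ± 56.0 (adjusted p = 0.000255, limma). With M-CSF its detection p was 0.0556, although its signal was 5.84 times the background. Ncr1, Klrk1, Klrb1c, Gzma and Eomes were detected in neither group. The part of such cells in the Tyrobp signal was not tested. Mast cells and basophils use Fcer1g. Among 8 of their markers, Fcer1a, Ms4a2, Cpa3, Mcpt8, Mcpt4, Tpsb2 and Prss34 were detected in neither group. Gata2 was detected with M-CSF + RANKL only and was at least 2.81-fold higher there, at 556 ± 51.9 against 188 ± 25.6 (adjusted p = 3.14e-07, limma). The part of mast cells and basophils in the Fcer1g signal was not tested. Of 8 dendritic cell and 5 T cell markers, 0 were detected in either group, and of 5 B cell markers 1 was.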

How the data were processed

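Per the labels, the authors ran 3 biological replicates per group on separate Illumina arrays and deposited, for each array gene and group, a normalized intensity (linear mean), its SD and a detection p-value. How the arrays were normalized, and which array version was used, is not given in the sources read. The series' value table held the same means in all 31492 array genes (relative tolerance 1e-06). No single-array values were used. The log2 ratio of the means was computed, and each deposited SD was turned into a log2 variance (delta method). The pooled variance had 4 degrees of freedom and was moderated in R 4.3.3 by limma 3.58.1, whose squeezeVar followed the trend with intensity and gave 7.49 prior degrees of freedom. Tests were two-sided with Benjamini-Hochberg adjustment and a threshold of 0.05. The procedure was tested on simulated data. Detection p-values were called regular where they were whole multiples of 1/n with n = 936.

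Names were matched to RefSeq symbols (GRCm38.p6): 13430 current symbols, 8112 single synonyms, 9950 unmatched. The brightest array gene stands for a symbol. Genes named beside the members are, per pathway list, the 3 largest called rises and 3 largest called falls. Syk, Hcst, Plcg2, Nfatc1, Sirpa, Pirb, Fcgr1 and Plxna1 are named whatever their values. Lat, Src, Ptpn22, Dok1, the neighbours of the Trem genes and single cell markers were added after values were seen. The rule's nearest array genes to 3 members are not reported, since levels of different probes are not compared. Members and lists were chosen with earlier results of these data known. Tyrobp and Trem3 had no promoter window in the table used.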

Additional observations from a re-analysis of the deposited data

How the results depend on the processing

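Of 63 values of the 9 members under 7 alternatives (no detection filter, a filter on signal, no intensity trend, an unequal-variance statistic on the linear means without moderation, doubled SDs, background subtraction and median centring), 60 kept their direction and their side of the threshold and 0 turned round. The other 3 kept their direction and lost the call. Oscar (log2 5.98) had an adjusted p of 0.053 without moderation, and Tyrobp (log2 -0.41) had 0.0804 without moderation and 0.119 in limma with doubled SDs. Over all alternatives the adjusted p of Tyrobp ran from 0.00192 to 0.119 and that of Oscar from 1.39e-13 to 0.053. Over all tested array genes 6369 were called, against 3868 without moderation and 3054 with doubled SDs. Median centring shifts every log2 ratio by less than 0.01. Background subtraction moved Oscar to 7.48 and Trem1 to -2.24, both set by the lower limit on the signal. No paired analysis was possible because each group was given as 1 mean with its SD, and for the same reason no replicate could be left out. Signal over background limits Trem1 with M-CSF + RANKL and Oscar with M-CSF.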
